A study of Mus musculus with 6 samples.

Results

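The interferon regulatory factors (IRFs) are transcription factors that bind DNA through a shared domain recognizing GAAA-containing elements. The members described here are Irf1, Irf2, Irf3, Irf4, Irf5, Irf7, Irf8 and Irf9, picked by gene symbol, and they make up 8 of the 41549 genes listed for these cells. All 8 members passed the filter on low counts, which kept 11933 genes.

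In macrophages (Mφs) the family sits at the junction of innate sensing, interferon signalling and polarization. Irf3 and Irf7 are phosphorylated downstream of nucleic acid and Toll-like receptors and switch on interferon genes. Irf9 is part of the complex ISGF3, which drives interferon-stimulated genes, among them Irf7 itself. Irf1 activates and Irf2 mostly represses a common set of interferon-responsive promoters. Irf5 is linked to pro-inflammatory cytokines and Irf4 to the alternative programme induced by IL-4, and both proteins bind the adaptor Myd88. Irf8 acts with the lineage factor PU.1 (Spi1) in myeloid development.

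Messenger RNA was sequenced from 6 libraries of bone marrow-derived Mφs of wild-type C57Bl/6 N mice aged 10 to 12 weeks. Marrow cells were grown for 7 days with M-CSF, the growth factor of Mφs, and transfected with 50 pmol of an antisense oligonucleotide. They were then polarized for 48 hours with IL-4 and IL-13, each at 10 ng/ml, which gives anti-inflammatory M2 cells. The comparison asks what changes in such cells when 5′tRF-Glu(CTC), the 5′ part of a cleaved glutamate tRNA, is blocked. In the Ctr group (n = 3) the oligonucleotide was a control antisense, and in the αGlu group (n = 3) it was directed against the fragment. Both groups were thus transfected and polarized, and neither holds untransfected or unpolarized cells. The study describes its samples as independent experiments, but the labels do not tie libraries to animals or cultures, so p-values measure the spread between these libraries. The fragment itself is too short to be measured in mRNA libraries, and its blockade could not be checked here.

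Total exon reads ranged from 17912831 to 30386653 per library. All 8 macrophage markers examined (Adgre1, Csf1r, Cd68, Mertk, Fcgr1, Lyz2, Itgam and Cd14) were present in every library, with summed levels of 11849 to 13404 CPM in Ctr and 12595 to 18784 CPM in αGlu. CPM are reads scaled to a common library size, adjusted by TMM factors (trimmed mean of M-values). Markers of neutrophils, dendritic cells, B cells, T and NK cells and fibroblasts summed to at most 30.8 CPM for any list in any library, and most of that came from Cd4 and Clec10a, which Mφs can express. Ly6g, Xcr1, Cd3g and Nkg7 had no read. A pair of libraries stood apart in the genes described below, namely αGlu 1 and Ctr 1. αGlu 1 often lay nearer to Ctr than αGlu 2 and 3 did, and in Ctr 1 interferon-stimulated genes were low. Over all tested genes, too, αGlu 1 lay nearer to Ctr than to the rest of its group. The chi-square per gene, a distance between libraries, was 74.6, 31.5 and 26.7 from αGlu 1 to Ctr 1, 2 and 3. To αGlu 2 and 3 it was 253 and 251. The cause was not tested. Results that rest on αGlu 1 or Ctr 1 are given with and without these libraries. The fit of Ctr 2 and 3 against αGlu 2 and 3 was chosen after the data had been seen.

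The antisense and the fragment it targets are shown because both define the αGlu group. Capitals mark the bases of the target, all but the first of the 21 listed, that pair with the 20 bases of the antisense.
antisense: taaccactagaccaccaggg
target: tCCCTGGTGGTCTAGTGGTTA
The longest stretch of a transcript that could pair with the antisense without a mismatch was 7 bases in Irf1 and Irf4, 8 in Irf3, Irf5, Irf8 and Irf9, 9 in Irf7 and 10 in Irf2. Across 11923 tested genes with a transcript in GENCODE M21, the median was 8 bases and the longest 13. A stretch of at least 7 bases was found in 91.3% of these genes and one of at least 9, as in Irf7, in 19.7%. The 10 bases of Irf2 were reached by 4.74%.

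Promoters of the members were searched on both strands for 4 motifs of factors in these pathways. They are from RefSeq (GRCm38.p6), with 300 bases each, of which 250 precede the start site. The 8 members had 11 such windows, since Irf1, Irf8 and Irf9 each had more than a single one. Shares given below are per promoter and leave out a chromosome that holds no member. Capitals mark a single match in each stretch, and further matches there are in lower case.
Irf1, chr11:53769904-53769952, plus strand: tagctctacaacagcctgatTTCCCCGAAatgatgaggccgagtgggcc
Irf8, chr8:120736167-120736215, plus strand: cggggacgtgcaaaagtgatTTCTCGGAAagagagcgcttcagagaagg
Irf2, chr8:46739495-46739533, plus strand: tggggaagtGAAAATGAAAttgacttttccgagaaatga
The first pair holds the GAS motif TTCNNNGAA, a site of STAT dimers, which occurred in 8.3% of 32851 promoters and also in Irf2. The Irf8 stretch holds a further GAS match, TTCAGAGAA, and the match of Irf2 is TTCCGAGAA, both in lower case above. The Irf2 stretch holds the core of the interferon-stimulated response element (ISRE), GAAA repeated after 2 bases, bound by ISGF3 and IRFs, found in 3.44% of promoters. This match overlaps one to the composite ETS-IRF site, GGAA and GAAA with 2 bases between (2.72% of promoters). The N4 site preferred by Stat6, TTC and GAA with 4 bases between, was found in the Irf9 window at the start site and in 6.95% of promoters. None of the 4 motifs matched in the windows of Irf3, Irf4, Irf5 and Irf7. The stretches upstream of Irf4 and Irf7, the members with groups that did not overlap in CPM, are given without capitals, since no motif matched.
Irf4, chr13:30748983-30749225, plus strand: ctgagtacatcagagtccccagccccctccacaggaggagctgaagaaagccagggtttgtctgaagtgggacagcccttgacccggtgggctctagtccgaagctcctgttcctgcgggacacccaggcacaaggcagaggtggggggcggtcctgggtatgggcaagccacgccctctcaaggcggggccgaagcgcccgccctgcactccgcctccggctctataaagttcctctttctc
Irf7, chr7:141266482-141266674, minus strand: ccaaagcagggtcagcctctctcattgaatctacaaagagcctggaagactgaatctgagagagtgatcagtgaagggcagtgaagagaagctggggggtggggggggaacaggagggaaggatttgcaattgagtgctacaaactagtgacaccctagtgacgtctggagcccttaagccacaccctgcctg

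Blockade of the fragment was accompanied by less Irf4 mRNA and more Irf7 mRNA in every αGlu library than in any Ctr library. The ranges of the other 6 members overlapped in CPM, though not all of them did in the length-scaled values given below. A call required a fold above 2 and, in edgeR's quasi-likelihood test adjusted by Benjamini-Hochberg over all genes, an adjusted p under 0.1. None of the 8 members met this rule, nor did any other of the 11933 genes (0.0%). At an unadjusted p under 0.05 there were 2 members, Irf4 and Irf5, both lower, beside 24.7% of all genes tested (11.9% lower). DESeq2 called 1 member (Irf4), beside 8.13% of the genes it tested (3.92% lower), and limma-voom called none. The 2 of 8 members without overlap in CPM stand beside 30.2% of all genes, so these counts do not set the family apart from the transcriptome.

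**Figure D1:**
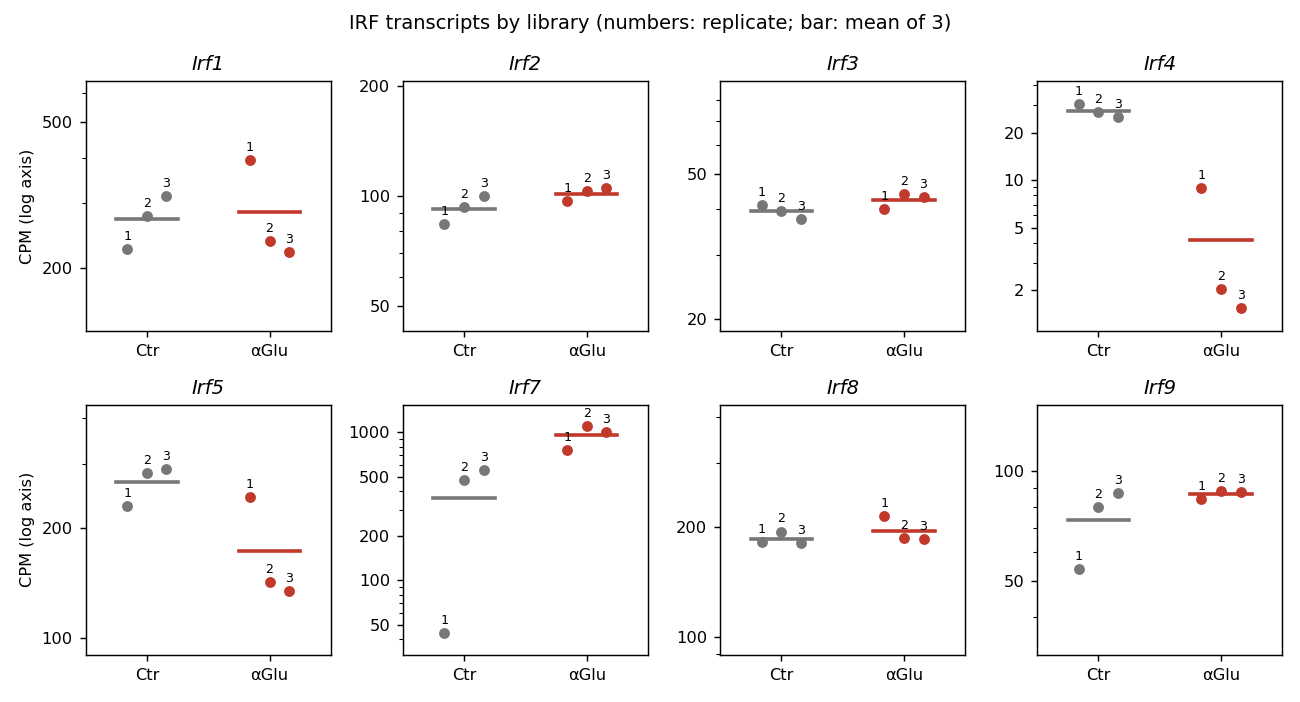
Level of each member in CPM (log axis, with its own range in each panel) in the 3 Ctr libraries (grey) and the 3 αGlu libraries (red). Points are libraries, numbered by replicate, and bars are means of 3. Irf4 lies at 25.3 CPM or more in Ctr and at 8.95 CPM or less in αGlu, Irf7 is at 43.9 CPM in Ctr 1 and at 475 CPM or more elsewhere, and the remaining panels show ranges that overlap.

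Irf4 (ENSMUSG00000021356, GRCm38 chr13:30749226-30766976, plus strand) is the member that IL-4 signalling induces through Stat6 and that promotes alternative activation. It stood at 30.3, 26.9 and 25.3 CPM in Ctr 1, 2 and 3. In αGlu 1, 2 and 3 it stood at 8.95, 2.05 and 1.54 CPM. Every αGlu library was thus below every Ctr library, αGlu 1 was the highest of its group, and the Ctr libraries lay close together. Counts behind these values were 545 to 668 reads in Ctr and 156, 65 and 42 reads in αGlu, and the 42 reads allow 1.11 to 2.08 CPM (exact 95% Poisson interval, counting error only). The log2 fold change was -2.76 ± 0.68 (SE, n = 3 per group, edgeR quasi-likelihood adjusted p 0.156), a 6.79-fold lower level. Ranked by unadjusted p (0.00653), Irf4 was at place 482 of 11933. In bulk RNA, fewer cells with Irf4 and less Irf4 RNA per cell cannot be told apart.

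The αGlu libraries had an SD of 1.33 for Irf4 on the log2 scale, compared with 0.13 for the Ctr libraries. Without αGlu 1 the log2 fold change of Irf4 was -3.93 ± 0.16 and edgeR's adjusted p 2.91e-05, a call shared by 18.6% of all genes in that fit (10.5% lower). DESeq2 on all 6 libraries called it too (-2.73 ± 0.64, adjusted p 0.00117), and limma-voom gave -3.35 at an adjusted p of 0.127, the smallest adjusted value there, which other genes share. Over its 14 alternatives the adjusted p of Irf4 ranged from 2.55e-05 to 0.427, and the fold change was negative in all of them. No annotated gene overlaps Irf4, so its reads are not shared with a neighbour.

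Irf5 (ENSMUSG00000029771, chr6:29526625-29541871, plus strand) drives cytokine genes such as Il12b and Tnf in inflammatory Mφs. Its levels were 231, 284 and 291 CPM in Ctr 1, 2 and 3, and 243, 143 and 135 CPM in αGlu 1, 2 and 3. αGlu 1 lay inside the Ctr range, whereas αGlu 2 and 3 lay below it. Its log2 fold change was -0.63 ± 0.25 (SE, n = 3 per group, edgeR quasi-likelihood adjusted p 0.1996). Leaving out αGlu 1 gave -0.96 ± 0.13 at an adjusted p of 0.00185, just short of the 2-fold limit. Without a fold limit, 2 members (Irf4 and Irf5) then passed, beside 49.1% of all genes. In Ctr 2 and 3 against αGlu 2 and 3 the value was -1.05 ± 0.08 (adjusted p 0.00021), which met both limits, and over the 14 alternatives the adjusted p of Irf5 ranged from 0.00021 to 0.482. Some of its exons overlap Tnpo3 on the opposite strand, and whether the counting used strand is not given in the sources used here.

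Irf7 (ENSMUSG00000025498, chr7:141262706-141266481, minus strand) is the master regulator of the interferon-α response and is itself induced by interferon. In Ctr 1, 2 and 3 it was measured at 43.9, 475 and 559 CPM. In αGlu 1, 2 and 3 it reached 757, 1095 and 1005 CPM. The groups did not overlap, but Ctr 1 was far below every other library, and αGlu 1 was the lowest of its group. The log2 fold change was 1.41 ± 0.83 (SE, n = 3 per group, edgeR quasi-likelihood adjusted p 0.314), a 2.65-fold higher level. The low Ctr 1 value both raised this estimate and widened its error. Without Ctr 1 the change was 0.89 ± 0.22 (adjusted p 0.351), and without αGlu 1 it was 1.54 ± 0.86 (adjusted p 0.201). The value of 0.351 is the smallest adjusted p in the fit without Ctr 1, and Irf4 and Irf5 share it. The unadjusted edgeR p of Irf7 was 0.0105 in that fit and 0.141 with all libraries. In Ctr 2 and 3 against αGlu 2 and 3 it was 1.02 ± 0.12 at an adjusted p of 0.00108. There 3 members were called, beside 18.2% of all genes, with Irf7 higher (8.28% of genes) and Irf4 and Irf5 lower (9.9%). Over 14 alternatives the adjusted p of Irf7 ranged from 0.00108 to 0.562 with a positive change in each. Exons of Irf7 overlap those of Phrf1 on the opposite strand, which had at most 2007 reads in a library compared with 966 reads of Irf7 in Ctr 1 and at least 11368 in the others.

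Irf3 (ENSMUSG00000003184, chr7:44997648-45002848, plus strand), the constitutively expressed partner of Irf7 in the first wave of interferon induction, varied little. Values were 41.2, 39.7 and 37.8 CPM in Ctr 1, 2 and 3 and 40.1, 44.2 and 43.2 CPM in αGlu 1, 2 and 3. αGlu 2 and 3 lay above all Ctr libraries and αGlu 1 between them. Its log2 fold change was 0.11 ± 0.07 (SE, n = 3 per group, edgeR quasi-likelihood adjusted p 0.376) and did not pass the test. Without any single library it stayed between 0.07 and 0.14. Bcl2l12, which overlaps Irf3 exons on the opposite strand, had at most 138 reads in a library.

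Irf9 (ENSMUSG00000002325, chr14:55603571-55610030, plus strand), the DNA-binding subunit of ISGF3, was at 53.9, 79.6 and 87.0 CPM in Ctr 1, 2 and 3. It was at 83.8, 88.5 and 87.7 CPM in αGlu 1, 2 and 3. Only Ctr 1 was low, and the other 5 libraries spanned 79.6 to 88.5 CPM. The log2 fold change was 0.24 ± 0.18 (SE, n = 3 per group, edgeR quasi-likelihood adjusted p 0.416). Leaving out Ctr 1 reduced it to 0.07 ± 0.08. Some exons are shared in position with Rnf31 on the same strand, so reads there are uncertain.

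Irf1 (ENSMUSG00000018899, chr11:53770014-53778374, plus strand) is induced by IFN-γ and activates antigen processing and antiviral genes. It was at 225, 277 and 315 CPM in Ctr 1, 2 and 3. The αGlu libraries 1, 2 and 3 gave 393, 237 and 221 CPM, so the highest and the lowest library of all both belonged to αGlu. Its log2 fold change was 0.06 ± 0.26 (SE, n = 3 per group, edgeR quasi-likelihood adjusted p 0.894), and its sign depended on the libraries used. It was -0.25 ± 0.15 without αGlu 1, -0.05 ± 0.29 without Ctr 1 and -0.37 ± 0.10 in Ctr 2 and 3 against αGlu 2 and 3 (adjusted p 0.0247, within a range of 0.0247 to 0.972 over the 14 alternatives).

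Irf2 (ENSMUSG00000031627, chr8:46739732-46847458, plus strand), the repressor that competes with Irf1 for the same elements, showed 83.8, 93.3 and 99.8 CPM in Ctr 1, 2 and 3. Its αGlu values were 96.8, 103 and 105 CPM. αGlu 1 fell inside the Ctr range and the other αGlu libraries just above it. With a log2 fold change of 0.14 ± 0.09 (SE, n = 3 per group, edgeR quasi-likelihood adjusted p 0.361) the groups could not be separated.

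Irf8 (ENSMUSG00000041515, chr8:120736358-120756694, plus strand) commits progenitors to the mononuclear phagocyte lineage. It measured 182, 195 and 180 CPM in Ctr 1, 2 and 3 and 214, 187 and 186 CPM in αGlu 1, 2 and 3. αGlu 1 was the highest library, and αGlu 2 and 3 lay within the Ctr range. The log2 fold change was 0.08 ± 0.10 (SE, n = 3 per group, edgeR quasi-likelihood adjusted p 0.625), 0.0027 without αGlu 1 and -0.01 in Ctr 2 and 3 against αGlu 2 and 3. Flt3 and Xcr1, which mark dendritic cells with high Irf8, had at most 1 read. Other genes of the dendritic list were not all absent. Siglech and Cd209a had at most 4 reads in a library, Ccr7 had 3 to 17 and Zbtb46 5 to 22. Clec9a had 6 to 39 reads and Clec10a 119 to 265. Irf8 lies within the longer annotation Gm20388 on the same strand, without shared exons.

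**Figure D2:**
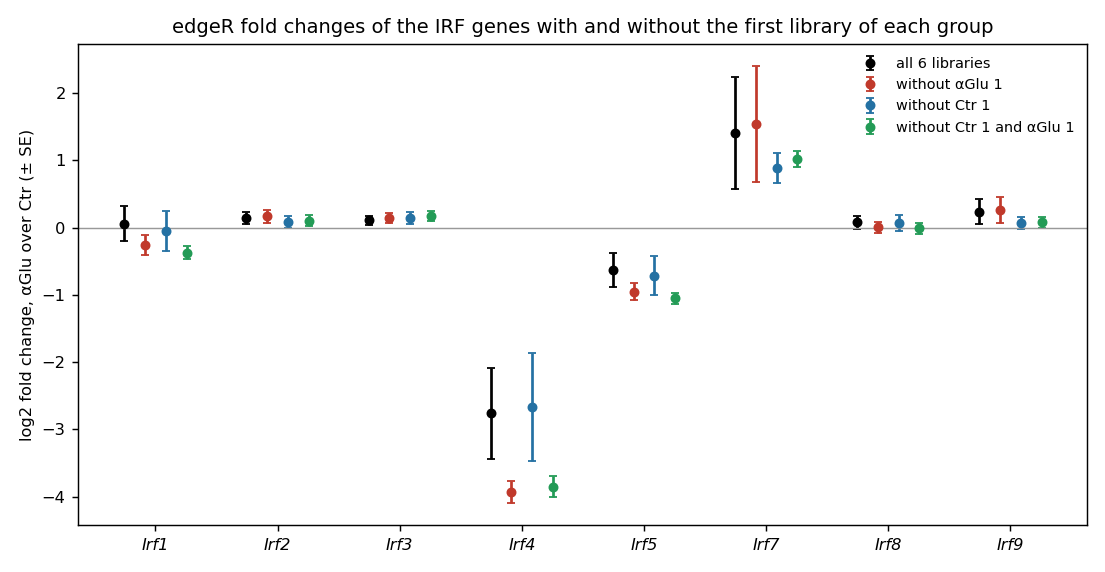
Log2 fold change of each member, αGlu over Ctr, with its SE (bars), from edgeR fits with all 6 libraries (black), without αGlu 1 (red), without Ctr 1 (blue) and without both (green). The error of Irf4 narrows from 0.68 to 0.16 without αGlu 1, that of Irf7 narrows from 0.83 to 0.22 without Ctr 1, and Irf1 crosses zero.

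Members were compared with each other as TPM, the authors' values that are scaled by gene length and add up to the same total in each library. In Ctr the order by mean was Irf7 (284 ± 218), Irf5 (278 ± 29.7), Irf1 (206 ± 31.5), Irf8 (79.3 ± 2.8), Irf9 (41.1 ± 9.1), Irf2 (37.6 ± 2.7), Irf3 (34.7 ± 2.0) and Irf4 (16.9 ± 1.9 TPM, SD, n = 3). The ranges of Irf7 and Irf5, of Irf9 and Irf2 and of Irf2 and Irf3 overlapped, so these neighbours were not distinct. In αGlu the order by mean was Irf7 (809 ± 164), Irf1 (227 ± 69.6), Irf5 (190 ± 60.5), Irf8 (88.6 ± 4.9), Irf9 (51.5 ± 2.8), Irf2 (43.9 ± 3.1), Irf3 (39.5 ± 2.9) and Irf4 (2.68 ± 2.59 TPM). Here the ranges overlapped between Irf1 and Irf5 and between Irf2 and Irf3. Irf4 was the least abundant member in both groups, and Irf7 was the most abundant in each library except Ctr 1, where Irf5 led. In TPM, unlike in CPM, Irf2 and Irf8 were also higher in every αGlu library than in any Ctr library. Irf2 was at most 40.4 TPM in Ctr and at least 40.6 TPM in αGlu, and Irf8 at most 82.1 and at least 84.9 TPM. Which members separated thus depended on the scaling. The share of all genes that separate in TPM was not computed, so these members are not set apart by it. TPM carry no TMM factors, and with library size alone the median log2 fold change of all genes was 0.10 instead of 0.02.

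The 8 members together gave 655, 1088 and 1192 TPM in Ctr 1, 2 and 3 and 1413, 1502 and 1440 TPM in αGlu 1, 2 and 3. All αGlu sums exceeded all Ctr sums (978 ± 285 compared with 1451 ± 45.4 TPM, SD, n = 3), with an exact two-sided permutation p of 0.1, the smallest that 3 against 3 allows. Irf7 supplied 5.46, 34.5 and 37.1% of this total in Ctr 1, 2 and 3. In αGlu its share was 44.0, 61.9 and 60.8%. Irf5 supplied 37.3, 26.8 and 25.1% in Ctr and 18.4, 10.5 and 10.6% in αGlu. Irf7 thus took a larger share in every αGlu library than in any Ctr library, while Irf4 never exceeded 2.91% of the sum. The higher sum was largely that of Irf7, at 35.8, 375 and 443 TPM in Ctr 1, 2 and 3. In αGlu 1, 2 and 3 Irf7 was at 622, 929 and 875 TPM. The remaining members together were higher in αGlu 1, but lower in αGlu 2 and 3, than in any Ctr library.

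**Figure D3:**
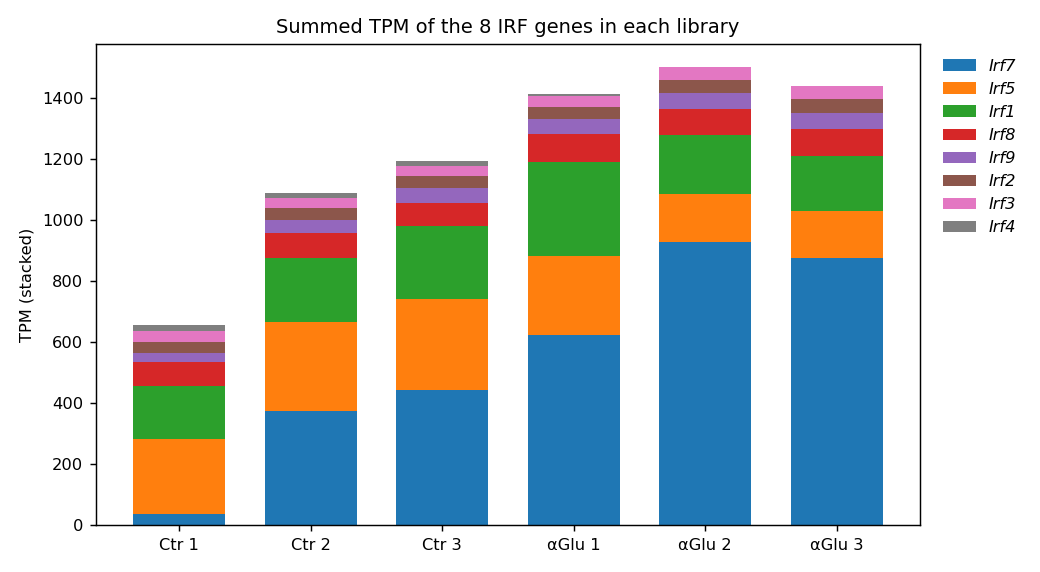
Summed TPM of the 8 members in each library, stacked by gene. Irf7 (bottom segment) takes 5.46% of the bar in Ctr 1 and 61.9% in αGlu 2, and the bars reach from 655 TPM in Ctr 1 to 1502 TPM in αGlu 2.

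Ratios inside a library do not depend on its depth, and 4 were examined for members with opposed or related roles. The TPM of Irf5 was 12.8, 17.8 and 19.4 times that of Irf4 in Ctr 1, 2 and 3. In αGlu 1, 2 and 3 it was 45.9, 118 and 148 times that of Irf4. On the log2 scale (TPM + 0.5) it averaged 3.999 ± 0.31 for Ctr and 6.16 ± 0.66 for αGlu (SD, n = 3), a difference of 2.16 without overlap (exact permutation p 0.1, adjusted over the 4 ratios 0.133). Although Irf5 itself was lower in αGlu 2 and 3, the ratio of the inflammatory to the alternative member was thus higher, since Irf4 was lower by more. Irf8 exceeded Irf4 4.16, 5.03 and 4.96 times in Ctr 1, 2 and 3, compared with 16.6, 63.5 and 83.8 times in αGlu (log2 difference 2.90, exact permutation p 0.1, adjusted 0.133).

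For the interferon-inducing pair, Irf7 was 0.972, 10.9 and 13.5 times Irf3 in Ctr 1, 2 and 3, and 17.2, 22.6 and 21.2 times Irf3 in αGlu 1, 2 and 3. The log2 difference was 1.94 (exact permutation p 0.1, adjusted 0.133), and 0.74 without Ctr 1, in the same direction. Irf1 was 4.99, 5.52 and 5.87 times Irf2 in Ctr, and 7.56, 4.28 and 3.92 times Irf2 in αGlu. These ranges crossed, the log2 difference was -0.11 (exact permutation p 0.8, adjusted 0.8), and αGlu 1 lay on the opposite side of Ctr from αGlu 2 and 3.

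**Figure D4:**
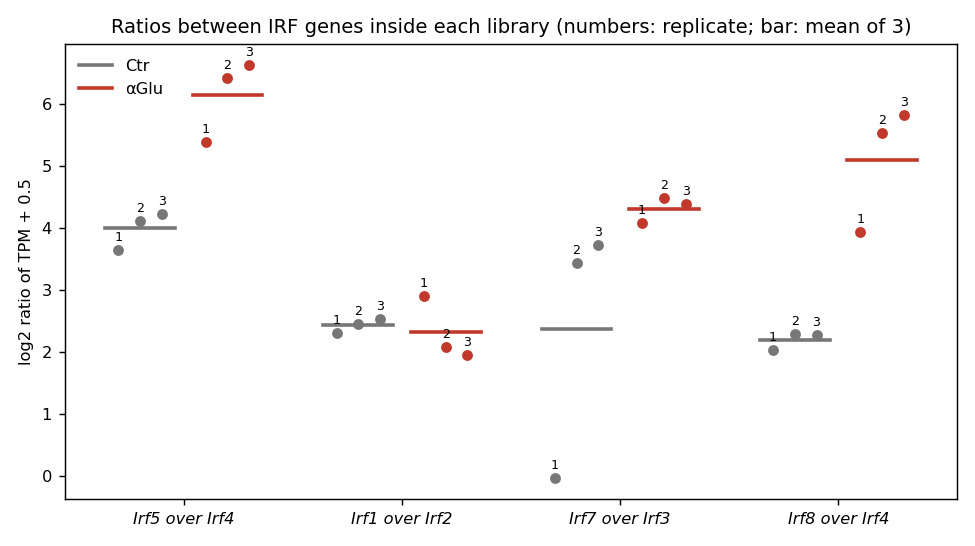
Log2 ratios of TPM + 0.5 between members inside each library, for Ctr (grey) and αGlu (red). Points are libraries numbered by replicate and bars are means of 3. Irf5 over Irf4 and Irf8 over Irf4 are higher in all αGlu libraries, Irf7 over Irf3 is separated by a small gap with Ctr 1 near zero, and Irf1 over Irf2 overlaps.

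The routes that lead to Irf4 were examined with 7 genes between the IL-4 receptor and Irf4, and none was lower without overlap as Irf4 was. Il4ra, the receptor chain, stood at 62.7, 61.1 and 66.3 CPM in the Ctr libraries, compared with 78.2, 510 and 643 CPM in the αGlu libraries (a log2 change of 2.70 ± 0.73, edgeR quasi-likelihood adjusted p 0.157). Jak3, the kinase bound to the common γ chain, was at 15.9, 16.6 and 16.1 CPM in the Ctr libraries, compared with 19.7, 42.8 and 43.7 CPM in αGlu. Both were higher in all αGlu libraries, with αGlu 1 near Ctr. Jak1, the most abundant of the list over all 6 libraries, overlapped between groups (-0.04 ± 0.11), as did Stat6, the factor that transmits the signal (0.02 ± 0.09, at 257, 278 and 256 CPM in Ctr and 279, 264 and 257 CPM in αGlu). In all, 3 of 7 genes were higher without overlap, beside 14.2% of all genes, and 0 were lower, beside 15.9%, and the median log2 fold change was 0.45 compared with 0.02 over all genes. Stat6, Kdm6b and other genes named outside the naming rule were chosen after their values were seen. Kdm6b, a histone demethylase known to act on the Irf4 locus, had a log2 fold change of 0.00 ± 0.33.

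Among 8 genes linked to Irf4 or alternative activation, 7 could be tested and they did not share a direction. Ccl22, a chemokine of alternatively activated Mφs, was at 13.04, 9.57 and 10.997 CPM in the Ctr libraries, compared with 2.47, 1.61 and 0.99 CPM in αGlu (a log2 change of -2.75 ± 0.34, edgeR quasi-likelihood adjusted p 0.149). It was lower in all αGlu libraries including αGlu 1. Arg1, the arginase of M2 Mφs, was at 24.3, 45.2 and 41.5 CPM in the Ctr libraries, compared with 23.5, 1886 and 1792 CPM in αGlu, so its level was high only where Irf4 was lowest. Chil3, the most abundant, overlapped between groups (0.50 ± 0.33). The list held 2 genes that were lower without overlap, beside 15.9% of all genes, and 0 that were higher, beside 14.2%. The other gene that was lower, Retnla, a secreted product of alternatively activated Mφs, was at 540, 245 and 289 CPM in Ctr 1, 2 and 3 and at 101, 0.0315 and 0.0367 CPM in αGlu 1, 2 and 3. The list's median log2 fold change (0.50) and its mean level differed in sign, since the mean log2 CPM was 6.32, 5.97 and 6.16 in Ctr and 5.46, 5.75 and 5.83 in αGlu. Without αGlu 1, 3 were called higher (8.05% of all genes) and 2 lower (10.5%).

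For the factors that activate Irf3, Irf5 and Irf7, 23 sensors, adaptors and kinases were tested. Ikbke, a kinase of Irf3 and Irf7, was at 134, 144 and 141 CPM in the Ctr libraries, compared with 169, 182 and 209 CPM in αGlu (a log2 change of 0.42 ± 0.11, edgeR quasi-likelihood adjusted p 0.156). Tank, a scaffold of that kinase, was at 57.5, 67.4 and 77.4 CPM in the Ctr libraries, compared with 80.2, 136 and 135 CPM in αGlu (0.80 ± 0.23). Unc93b1, which carries nucleic acid receptors to endosomes and was the most abundant, overlapped between groups (-0.32 ± 0.17). Of the 23 genes, 10 were higher and 2 lower without overlap, beside 14.2% and 15.9% of all genes, and the median log2 fold change was 0.30. Without αGlu 1 the calls were balanced, with Tank higher (8.05% of all genes) and Slc15a4 lower (10.5%). Genes for the interferons themselves were almost silent. Of 21 listed, 19 had no read in any library, and Ifnb1 and Ifng reached 3 reads each in αGlu 2 and 2 reads each in αGlu 3, with 0 reads in the other 4 libraries. A count of 0 allows a level of up to 0.172 CPM (3 reads) in αGlu 1, the shallowest library, by counting error alone.

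Interferon receptors and their JAK-STAT chain, which act upstream of Irf9, Irf1 and Irf7, were for the most part higher in αGlu 2 and 3. Ifnar2 was at 93.8, 101 and 110 CPM in the Ctr libraries, compared with 120, 255 and 217 CPM in αGlu (a log2 change of 0.95 ± 0.28, edgeR quasi-likelihood adjusted p 0.159). Jak2 was at 142, 213 and 216 CPM in the Ctr libraries, compared with 207, 762 and 840 CPM in αGlu, with αGlu 1 inside the Ctr range. Of the 8 genes, 3 were higher and 0 lower without overlap, beside 14.2% and 15.9% of all genes, and the median log2 fold change was 0.91. Without αGlu 1, 5 were called higher, beside 8.05% of all genes.

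The 27 target genes of ISGF3 were at a similar height in 5 libraries and low in Ctr 1. Their mean level was 4.98, 7.31 and 7.39 on the log2 CPM scale in Ctr 1, 2 and 3 and 7.61, 7.36 and 7.11 in αGlu 1, 2 and 3. With all libraries 26 of 27 had a positive log2 fold change (median 0.43) and 8 were higher without overlap (14.2% of all genes), Parp9 (0.61 ± 0.27) and Parp14 (0.64 ± 0.32) among them. In Ctr 2 and 3 against αGlu 2 and 3, however, 12 of 27 were positive and the median was -0.02. Irf7 shared the low level in Ctr 1, with a log2 CPM of 5.46 compared with 8.89 and 9.13 in Ctr 2 and 3. Its log2 CPM exceeded the list's mean by 0.48, 1.58 and 1.73 in Ctr 1, 2 and 3 and by 1.96, 2.74 and 2.86 in αGlu 1, 2 and 3, without overlap. This difference was looked at after the values were seen and was not tested. The list's members also differed from its mean. Oasl1 was at 3.54, 37.4 and 35.8 CPM in the Ctr libraries, compared with 49.9, 100 and 77.3 CPM in αGlu. Ifit2 was at 66.2, 680 and 714 CPM in Ctr, compared with 1089, 324 and 247 CPM in αGlu.

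Genes linked to Irf1 and IFN-γ behaved in part otherwise than Irf1. Socs1, the inhibitor of JAK signalling, was at 7.27, 8.94 and 9.23 CPM in the Ctr libraries, compared with 12.2, 38.6 and 39.6 CPM in αGlu (a log2 change of 1.83 ± 0.45, edgeR quasi-likelihood adjusted p 0.156). Ciita, the master regulator of MHC class II, was at 136, 150 and 116 CPM in the Ctr libraries, compared with 102, 73.8 and 80.5 CPM in αGlu (-0.65 ± 0.16, adjusted p 0.156). B2m, the most abundant of the list, overlapped (0.20 ± 0.26). Of 21 genes, 10 were higher and 1 lower without overlap, beside 14.2% and 15.9% of all genes. The median log2 fold change of 0.40 was 0.12 in Ctr 2 and 3 against αGlu 2 and 3.

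Of 6 cytokine genes linked to Irf5, Tnf and Il1b passed the filter. Tnf was at 7.31, 7.77 and 9.88 CPM in the Ctr libraries, compared with 9.35, 18.9 and 20.7 CPM in αGlu 1, 2 and 3. Il1b was at 0.454, 0.293 and 0.278 CPM in the Ctr libraries, compared with 0.0574, 322 and 345 CPM in αGlu. In both, αGlu 1 did not exceed the Ctr range and αGlu 2 and 3 lay above it, the libraries in which Irf5 was low. Il12b and Il23a, subunits of cytokines that Irf5 is known to induce, had at most 0.0734 CPM. The remaining cytokine genes, Il12a and Il6, did not pass the filter with all 6 libraries and were named after their values were seen. Il12a, a further subunit, was at 0, 0.167 and 0 CPM in Ctr 1, 2 and 3 and at 0.172, 16.8 and 9.46 CPM in αGlu 1, 2 and 3. Il6 was at 0.273, 0.209 and 0 CPM in the Ctr libraries, compared with 0.287, 1.32 and 1.10 CPM in αGlu. Both were thus near 0 in αGlu 1 as in Ctr and higher in αGlu 2 and 3. Without αGlu 1 they entered the test, since their reads in αGlu 2 and 3 then carried them past the filter. Their log2 fold changes in that fit were 7.68 for Il12a and 2.86 for Il6. Both were called higher, beside 8.05% of all genes. The filter had kept them for those same high values, so these calls add nothing to the levels. The fitted change of Il12a rests on 0 to 4 reads in the Ctr libraries.

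DNA-binding partners showed no shared direction, with 4 of 18 tested genes higher and 3 lower without overlap, beside 14.2% and 15.9% of all genes. Spi1, which recruits Irf4 and Irf8 to composite sites, was at 240, 258 and 237 CPM in the Ctr libraries, compared with 225, 189 and 190 CPM in αGlu (-0.28 ± 0.11, edgeR quasi-likelihood adjusted p 0.188). Batf, the partner of Irf4 and Irf8 at AP-1 composite sites, was at 4.91, 5.27 and 3.90 CPM in the Ctr libraries, compared with 6.19, 30.9 and 34.4 CPM in αGlu (2.35 ± 0.62, adjusted p 0.157). Ikzf1, another partner, was at 58.7, 67.4 and 73.4 CPM in the Ctr libraries, compared with 78.8, 86.0 and 86.6 CPM in αGlu (0.33 ± 0.10). While Irf4 was lower in αGlu, Batf was thus higher and Spi1 slightly lower. Among 7 genes linked to Irf8, 2 were higher and 2 lower without overlap, beside the same shares of all genes. Klf4, which acts below Irf8 in monocyte development, was at 23.99, 21.5 and 26.8 CPM in the Ctr libraries, compared with 17.6, 10.95 and 11.04 CPM in αGlu (-0.87 ± 0.22). Slc11a1 had a log2 fold change of 0.40 ± 0.12, and Cybb, the most abundant, overlapped between groups (0.46 ± 0.24).

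**Figure D5:**
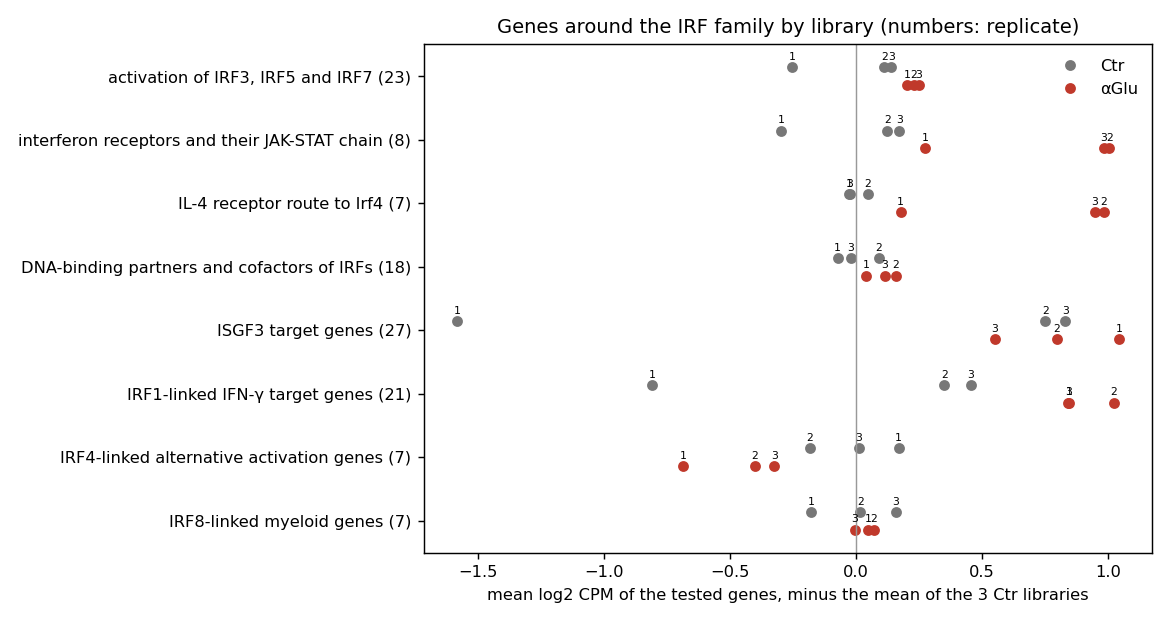
Mean log2 CPM of the tested genes of each list (number in brackets) in each library, minus the mean of the 3 Ctr libraries, for Ctr (grey) and αGlu (red), numbered by replicate. The list of 2 tested cytokine genes is left out. ISGF3 targets are low in Ctr 1 alone (-1.58), whereas receptor lists are high in αGlu 2 and 3.

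The members also differed in which genes varied like them across the 6 libraries. These correlations of log2 CPM over 6 libraries and 8418 genes are descriptions. They share the separation of some libraries from the rest, namely αGlu 2 and 3, Ctr 1 or, for Irf1 and Irf8, αGlu 1. Irf4 was most like Ech1 and Fgfr1 (Pearson r 0.999 for each), and 7.28% of the genes compared exceeded 0.95 with it. Irf5 was most like Mpdu1 and Akr1a1 (r 0.998 for each, 5.64% above 0.95), and Irf7 like Fcgr1 and Zbp1 (r 0.999 and 0.998, 1.81%). Fgfr1, a growth factor receptor, was at 40.5, 35.1 and 26.8 CPM in the Ctr libraries, compared with 8.20, 1.32 and 0.844 CPM in αGlu, in the same order of libraries as Irf4. Zbp1, a nucleic acid sensor, was at 29.8, 139 and 141 CPM in the Ctr libraries, compared with 176, 241 and 229 CPM in αGlu. Irf9 was most like Ms4a4c and Lgals9, Irf2 like Map3k12 and Snrpd1, Irf3 like Nfe2l1 and Klhdc10, Irf1 like Mfsd5 and Cd200r4, and Irf8 like Kat6a and Ranbp2.

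Within the family the highest of 28 correlations over the 6 libraries were 0.98 between Irf7 and Irf9, and 0.94 for Irf2 with Irf7, Irf2 with Irf9 and Irf4 with Irf5. Irf3 and Irf5 had the lowest, at -0.94. Irf7, Irf9 and Irf2 were all lowest in Ctr 1, and Irf4 and Irf5 were both lowest in αGlu 2 and 3. Irf8 correlated with no other member above 0.73.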

How the data were processed

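The authors deposited 1 table of 41549 genes with 4 values per library, made with the QIAGEN RNA-seq Analysis Portal 5.1 on GRCm38 according to the submitters' processing notes and the study's methods. Library preparation was stranded. The aligner, the annotation and the use of strand in counting are not given in the sources used here. The deposited counts are whole exon reads without normalization. The deposited TPM values, computed by the authors, were used to compare genes. The deposited RPKM values and the deposited CPM signal of the authors were read but enter no result. Gene positions are from GENCODE M21 and promoters from RefSeq (GRCm38.p6), and the table and both references have the same build.

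Counts were filtered with filterByExpr (minimum count 10, minimum total 15), scaled with TMM factors and tested with edgeR 4.0.16 (quasi-likelihood, two-sided, group only, Benjamini-Hochberg over 11933 genes) in R 4.3.3. Calls needed an adjusted p under 0.1 together with a log2 fold change beyond 1 in either direction. edgeR's test returns no SE, so the SE beside its fold changes is the absolute log2 fold change divided by the square root of the F statistic. log2 CPM had a prior count of 2. Ratios and sums were compared with exact permutation tests. The fits were tested on simulated data. Alternatives were DESeq2 1.42.0, limma-voom (limma 3.58.1), RLE factors, library size alone, other filters, a replicate block and each library left out. No library was a duplicate of another (chi-square per gene at least 19.8).

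The members and the 16 gene lists (10 pathway, 6 marker) were chosen with earlier results of these data known. Besides all members, the text names from each pathway list the 2 genes with the smallest unadjusted p and the most abundant one. For likeness it names the 2 genes with the highest Pearson r at a mean log2 CPM of at least 3. Others were chosen after their values were seen. For 1 gene that this rule names, the values are not reported here.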

Additional observations from a re-analysis of the deposited data

How the results depend on the processing

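Settings that moved a result were the test, αGlu 1, Ctr 1 and the replicate block. DESeq2 called 1117 genes and 1 member (Irf4, -2.73), and Ctr 2 and 3 against αGlu 2 and 3, chosen after seeing the data, called 2226 genes and 3 members (Irf4 -3.85, Irf5 -1.05 and Irf7 1.02). That fit turned the sign of Irf1 to -0.37 and of Irf8 to -0.0103. Leaving out 1 library gave 0 to 2290 called genes and 0 to 1 called members, with 2290 and 1 only without αGlu 1. The fold changes then ranged from -3.93 to -2.36 for Irf4, -0.96 to -0.47 for Irf5, 0.89 to 1.87 for Irf7 and -0.25 to 0.21 for Irf1, and the log2 ratio of Irf1 over Irf2 from -0.409 to 0.0638. Fewer samples enter these fits, and the cause was otherwise not tested. The labels do not say that equal replicate numbers mark pairs, and the deviations of same-numbered libraries correlated at 0.08, 0.06 and 0.15. With the replicate block edgeR called 17 genes and 0 members, with Irf4 at -3.14 and Irf7 at 1.97, and the 4 ratios and the sum kept their values (exact p at least 0.25, the smallest for 3 pairs). RLE factors, library size alone (which shifted the median of all genes from 0.02 to 0.10), both filters, limma-voom and no fold limit left 0 genes and 0 members called and no member with a changed sign. With 3 libraries a group, exact tests could not pass 0.1.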
